A study of Brassica juncea with 21 samples.

Results

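Transcripts of 72 genes for nitrate, peptide, ammonium and amino acid transporters were followed through nectar secretion in the flowers of Brassica juncea, a polyploid mustard. The members were all genes whose product description names an NRT1/PTR FAMILY protein, a nitrate, ammonium or oligopeptide transporter, an amino acid permease or transporter, a lysine histidine transporter or a WAT1-related protein. They are 72 of 13904 genes in the table, with 1 transcript per gene, and all 72 passed the filter on low values, which 13896 genes passed. Lateral and median nectaries were each sampled at 3 stages: the pre-secretory stage, 24 h before the flowers opened, the secretory stage, with flowers fully open, and the post-secretory stage, 12 h later. Leaf blades collected with the secretory nectaries were the other tissue. Each of the 7 groups held 3 libraries, 21 in all, and about 100 nectaries dissected by hand from plants about 40 days old were pooled for each nectary library, with a separate set of plants for each. No genotype, treatment or transgene is named for any group.

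Land plants move nitrogen as nitrate, ammonium, peptides and amino acids, and each form has its own membrane carriers. NPF proteins are proton-coupled carriers whose members take up nitrate, small peptides, hormones or glucosinolates. Amino acid permeases (AAP) and the lysine histidine transporters (LHT) import amino acids with protons, while many WAT1-related proteins, also called UMAMIT, let amino acids leave cells or enter the vacuole. Nectar carries amino acids beside its sugars, and nectaries are sink tissues fed by the phloem.

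The table holds 1 normalized whole-number value per group and gene, so replicate spread could not be measured and nothing was tested, and "higher" and "lower" refer to group values alone. A difference was counted from 2-fold upward on log2 of the value plus 1. Read depth per library is unknown, and levels are compared within a gene and not between genes, because no correction for transcript length is stated. Column totals ran from 7081592 to 11197495 and column medians from 168 to 192. The labelled tissues were checked against defining genes: CRABS CLAW, SWEET9 and CWINV4, which mark nectaries, summed to 205867, 335247 and 15366 before, during and after secretion in lateral nectaries, to 100973, 150677 and 26601 in median nectaries and to 180 in leaf, while 3 photosynthesis genes summed to at most 37226 in nectaries against 894510 in leaf. The guard cell marker KAT1 summed to 869, 257 and 66 in lateral nectaries, to 555, 143 and 29 in median nectaries and to 80 in leaf. Of 3 tapetum and 3 carpel and ovule markers 0 were measured. Fewer cells of a type and less RNA per cell cannot be told apart in such pooled tissue.

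By family, 26 members are NPF proteins, 16 are WAT1-related, 8 are amino acid permeases, 5 are cationic amino acid transporters, 4 are sodium-coupled neutral and 4 are proton-coupled amino acid transporters. A further 3 are oligopeptide transporters (OPT), and the lysine histidine, vacuolar amino acid and ammonium transporters have 2 members each. No gene of the high-affinity NRT2 group was among them. An Arabidopsis match was listed for 54 of the 72. Together the members held between 0.301% and 1.03% of the column total in nectaries against 0.226% in leaf, with the highest share in median post-secretory nectaries.

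**Figure D1:**
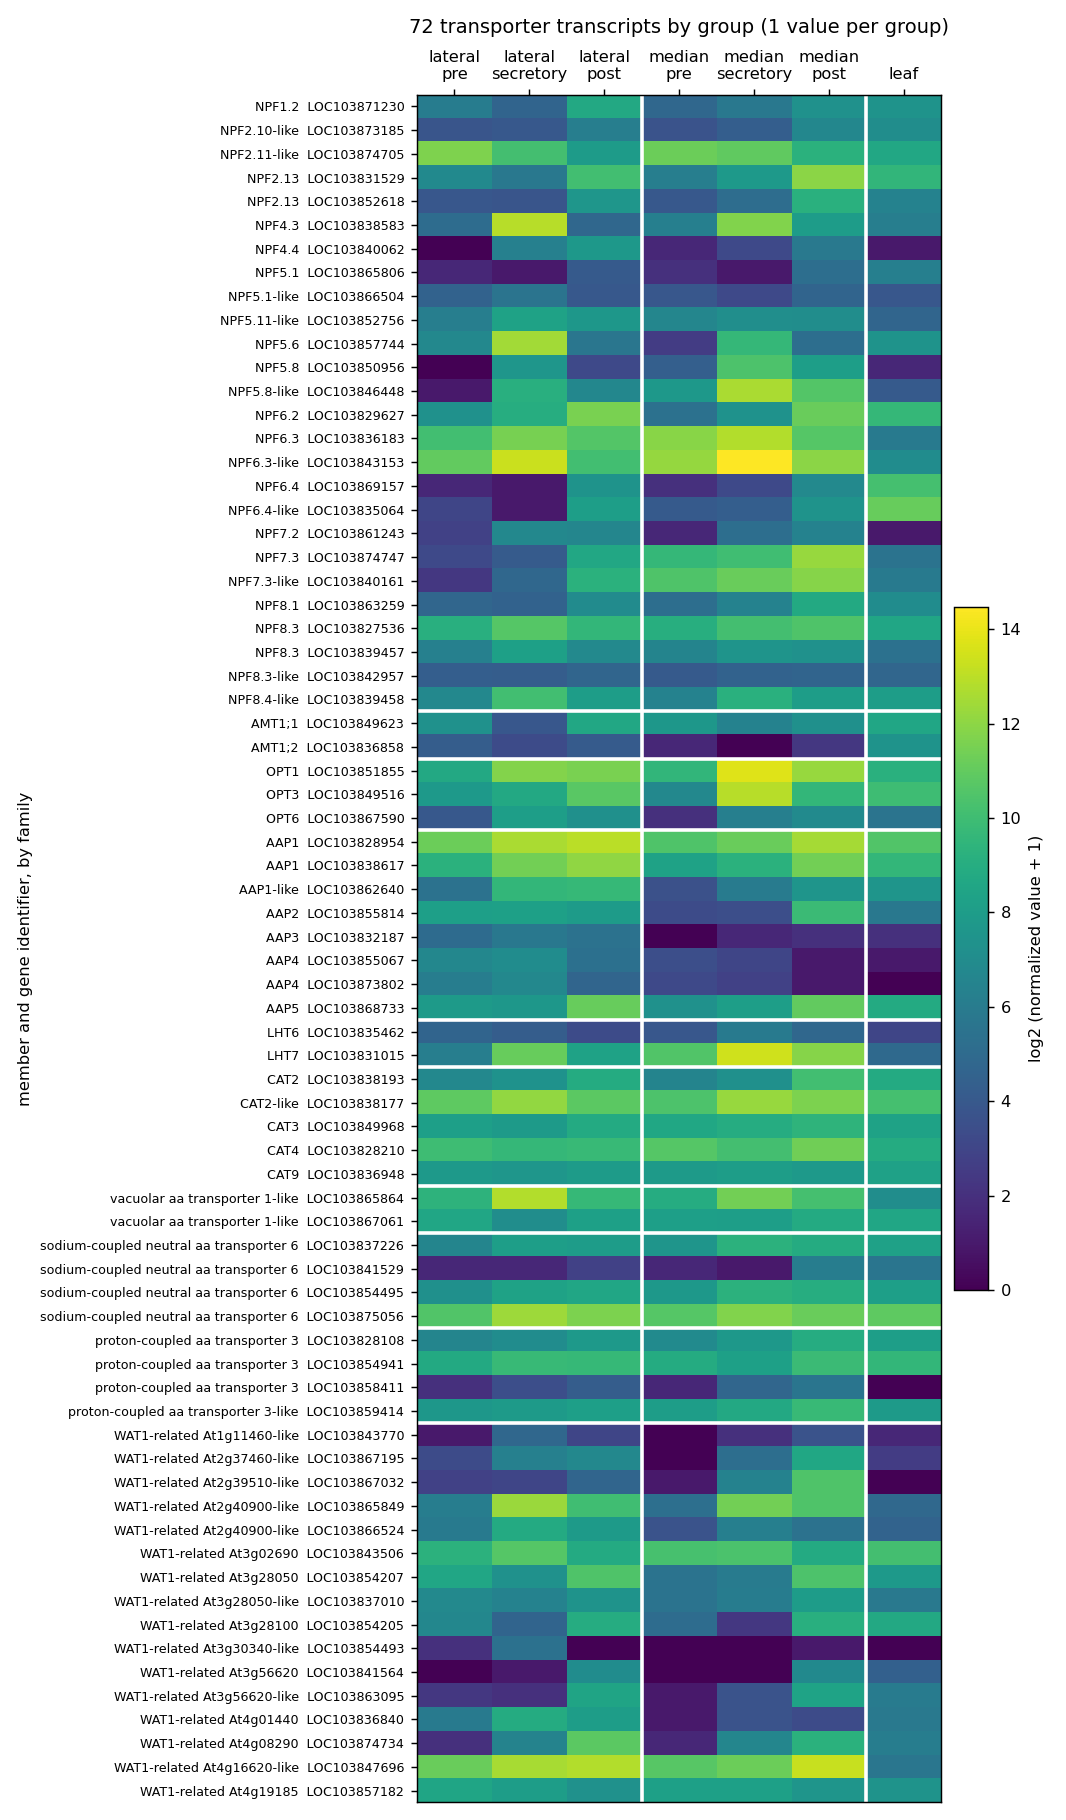
Levels of the 72 members as log2 (normalized value + 1), 1 row per gene ordered by family and 1 column per group, with lateral nectaries, median nectaries and leaf separated by white lines ("aa" is amino acid). NPF6.3-like reaches the highest value, 22740 in median secretory nectaries, and both NPF6.4 rows are brightest in leaf.

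Most members had their highest value in a nectary, and in a secretory or post-secretory one. The peak lay in secretory nectaries for 31 members, 20 in lateral and 11 in median ones, and in post-secretory nectaries for 32, 12 in lateral and 20 in median ones. Of all genes compared, 22.6% peaked in lateral secretory, 9.48% in median secretory, 10.8% in lateral post-secretory and 12.4% in median post-secretory nectaries. Leaf held the peak of 7 members, whereas 20.9% of all genes peaked there. Lateral pre-secretory nectaries held the peak of 2 members (10.7% of all genes) and median pre-secretory nectaries of 0 (11.9% of all genes). The 2 pre-secretory peaks were NPF2.11-like (LOC103874705) and WAT1-related At4g19185 (LOC103857182).

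By a 2-fold rule, stage profiles put part of the members in a secretion-peak set or a late set. A member was put in the first set when its secretory value was at least 2-fold above both the pre-secretory and the post-secretory value, and in the late set when its post-secretory value was at least 2-fold above both others. In lateral nectaries 16 members peaked at secretion (11.2% of all genes did) and 23 were highest late (8.43% of all genes). In median nectaries the numbers were 11 (5.67% of all genes) and 32 (10.1% of all genes). The median late count includes WAT1-related At3g30340-like (LOC103854493), listed at only 0, 0 and 1 there. Pre-secretory values stood at least 2-fold above both other stages in 1 member in lateral nectaries (7.69% of all genes) and in 0 in median nectaries (11.8% of all genes). A further 31 members in lateral and 28 in median nectaries had neither such a peak nor a 2-fold low at secretion. Their share over all genes was not computed. In both nectary types alike, 8 members peaked at secretion (4.12% of all genes) and 20 were late (5.62% of all genes). The 8 shared secretion-peak members were NPF4.3, NPF5.6, both NPF5.8 copies, NPF6.3-like, NPF8.4-like, LHT7 and a vacuolar amino acid transporter 1-like gene. The late set held 11 NPF genes, 6 WAT1-related genes, AAP5, CAT2 and a sodium-coupled neutral transporter.

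**Figure D2:**
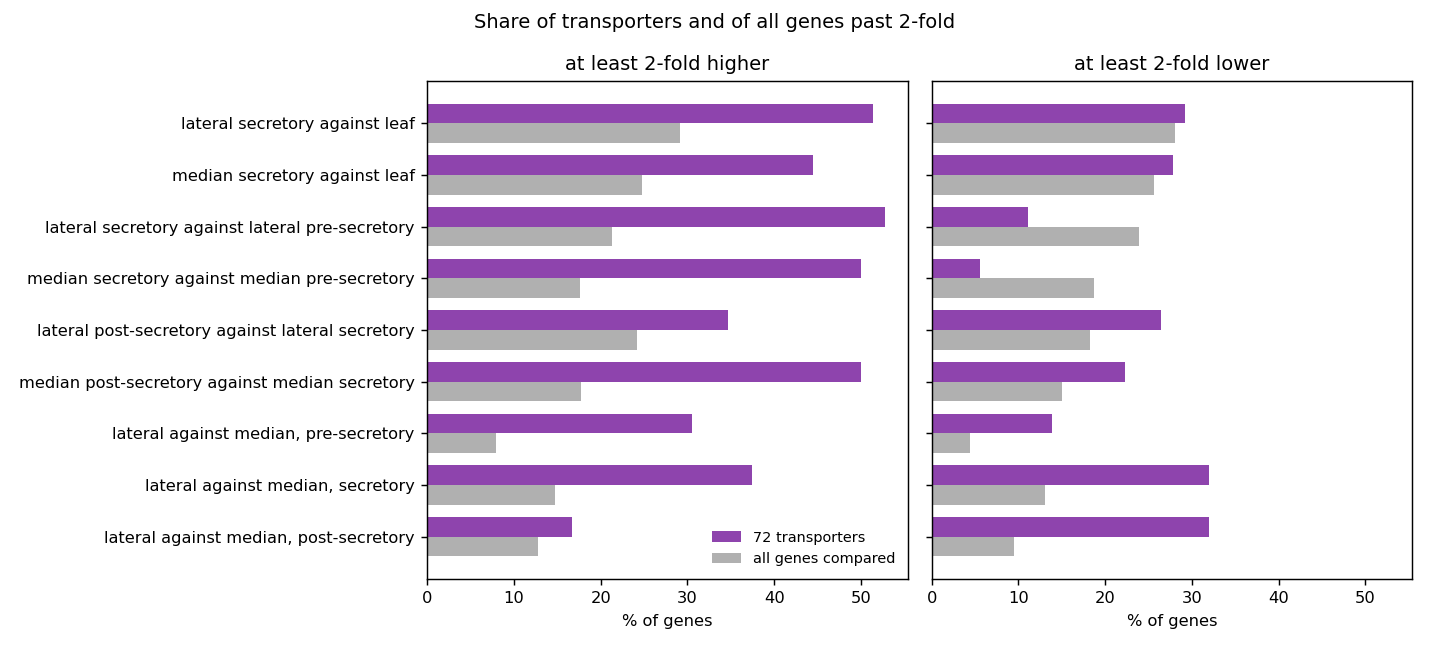
Percentage of the 72 transporters (purple) and of all 13896 genes compared (grey) that were at least 2-fold higher (left panel) or lower (right panel) in the first-named group of each of the 9 comparisons. In median post-secretory compared with median secretory nectaries the higher bar is 50.0% for transporters against 17.7% for all genes, and in the lateral step out of secretion it is 34.7% against 24.2%.

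Secretory nectaries were first compared with leaf. At secretion in lateral nectaries 37 of 72 members were higher than in leaf and 21 lower, against 29.2% of all genes higher and 28.1% lower. In median nectaries at that stage 32 were higher and 20 lower, against 24.8% and 25.6% of all genes. The share of members higher, 51.4% in lateral and 44.4% in median nectaries, lay above that of all genes, while the share lower, 29.2% and 27.8%, lay near it. The members' median difference was 1.35 in lateral and 0.66 in median nectaries on the log2 scale, beside 0.08 and 0.09 for all genes. The same 26 members were higher in both types (20.0% of all genes) and 14 were lower in both (20.8% of all genes). With at least 100 required in a compared group, 23 of 48 members were higher and 13 lower in median secretory nectaries than in leaf, against 26.2% of all genes each way.

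**Figure D3:**
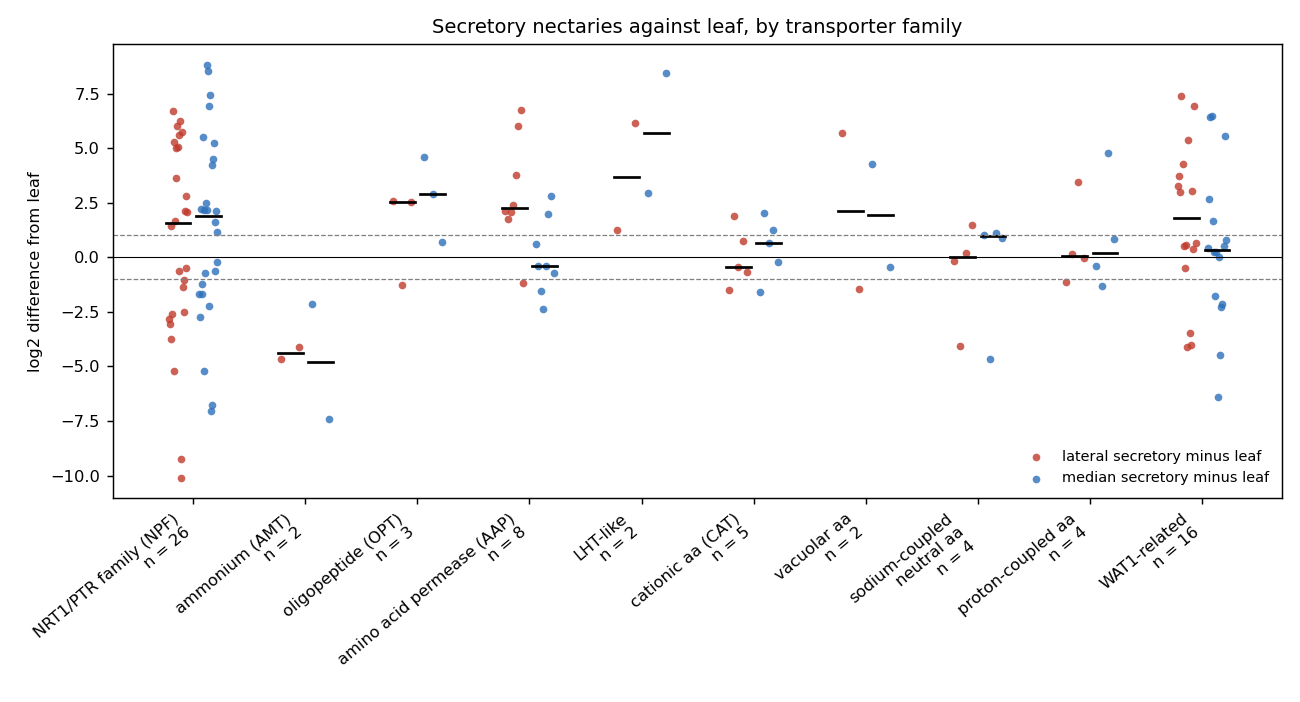
Log2 difference of lateral (red) and median (blue) secretory nectaries from leaf for each member, by family. Black bars are family medians and dashed lines mark 2-fold. Amino acid permeases have a median of 2.25 in lateral and −0.40 in median nectaries, and both ammonium transporters lie below −2 in both types.

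Among NPF genes known as nitrate carriers in Arabidopsis, an NPF6.3 copy stood highest above leaf in both nectary types at secretion. NPF6.3, also known as NRT1.1, is the dual-affinity nitrate transporter of Arabidopsis and also acts there as a nitrate sensor. Its Arabidopsis locus AT1G12110 spans chromosome 1 from 4105341 to 4109290 on the forward strand. The copy NPF6.3-like (LOC103843153) was listed at 2024, 10114 and 1110 in lateral nectaries and at 4560, 22740 and 3962 in median nectaries, in the order of the stages before, during and after secretion, and at 131 in leaf. Values below follow the same order of stages. All 6 nectary values were above leaf, and the secretory value was the highest of each type. The differences from leaf at secretion were 6.26 in lateral and 7.43 in median nectaries, and the step into secretion was 2.32 in each type. The other copy, LOC103836183, was listed at 1110, 2908 and 1574 in lateral nectaries, at 3796, 7222 and 1607 in median nectaries and at 59 in leaf. It also had its highest value of each type at secretion, and its step into secretion was 1.39 in lateral and 0.93 in median nectaries. When all columns were given an equal total, the lateral step of this copy was 0.90, below 2-fold, and after quantile normalization it was 0.95.

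NPF4.3, NPF5.6 and the NPF5.8 copies had sharp secretion peaks. NPF4.3 (LOC103838583) was listed at 34, 7602 and 27 in lateral nectaries, at 74, 3366 and 256 in median nectaries and at 73 in leaf. Before and after secretion its lateral values were below leaf, and at secretion the lateral value was 7.76 above the pre-secretory one on the log2 scale. NPF5.6 (LOC103857744) was listed at 107, 5629 and 50 in lateral nectaries, at 5, 791 and 36 in median nectaries and at 173 in leaf. Both genes were at least 2-fold higher in lateral than in median nectaries at secretion, with differences of 1.18 for NPF4.3 (0.96 after quantile normalization, below 2-fold) and 2.83 for NPF5.6. NPF5.8-like (LOC103846448) was listed at 1, 556 and 101 in lateral nectaries, at 211, 6362 and 1535 in median nectaries and at 16 in leaf. The second copy, NPF5.8 (LOC103850956), was listed at 0, 192 and 8 in lateral nectaries, at 20, 1359 and 281 in median nectaries and at 2 in leaf. Both copies were higher in median nectaries at every stage, the reverse of NPF5.6. At secretion their lateral minus median differences were −3.51 and −2.82.

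NPF7.3-like had the largest difference between nectary types of all 72 members both before and at secretion. In Arabidopsis NPF7.3, also called NRT1.5, releases nitrate into the root xylem, and its locus AT1G32450 lies on chromosome 1 from 11715337 to 11719807 on the reverse strand. NPF7.3-like (LOC103840161) was listed at 4, 28 and 598 in lateral nectaries, at 1450, 2291 and 3646 in median nectaries and at 59 in leaf. NPF7.3 (LOC103874747) was listed at 8, 17 and 412 in lateral nectaries, at 809, 1057 and 4833 in median nectaries and at 45 in leaf. For both copies every median value was above every lateral value, and lateral values were below leaf until the post-secretory stage. The lateral minus median differences of NPF7.3-like were −8.18, −6.30 and −2.61 over the 3 stages, and those of the other copy were −6.49, −5.88 and −3.55. NPF7.2 (LOC103861243), which in Arabidopsis removes nitrate from the xylem, had 6, 107 and 98 in lateral nectaries, 2, 37 and 86 in median nectaries and 1 in leaf.

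The NPF2.13 copies, NPF6.2 and NPF1.2 were below leaf at secretion and highest afterward. NPF2.13, or NRT1.7, loads nitrate into the phloem of older Arabidopsis leaves. NPF2.13 (LOC103831529) was listed at 118, 54 and 1082 in lateral nectaries, at 73, 229 and 3925 in median nectaries and at 726 in leaf. Its second copy (LOC103852618) was listed at 14, 13 and 193 in lateral nectaries, at 15, 35 and 579 in median nectaries and at 83 in leaf. In both copies the post-secretory value was the highest of each type and exceeded leaf, with steps out of secretion between 3.79 and 4.30. NPF6.2 (LOC103829627), or NRT1.4, which serves nitrate storage in the Arabidopsis petiole, was listed at 156, 515 and 3004 in lateral nectaries, at 42, 168 and 2312 in median nectaries and at 798 in leaf. NPF1.2 (LOC103871230), a phloem nitrate carrier of Arabidopsis leaves, was listed at 67, 24 and 433 in lateral nectaries, at 27, 54 and 159 in median nectaries and at 174 in leaf. These genes were thus below leaf at secretion in both types, and above it after secretion except for NPF1.2 in median nectaries.

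The NPF6.4 copies were the members furthest below leaf in lateral secretory nectaries. NPF6.4, or NRT1.3 in Arabidopsis, belongs to the same subfamily as NPF6.3. NPF6.4-like (LOC103835064) was listed at 7, 1 and 278 in lateral nectaries, at 16, 19 and 171 in median nectaries and at 2195 in leaf. NPF6.4 (LOC103869157) was listed at 2, 1 and 173 in lateral nectaries, at 3, 8 and 111 in median nectaries and at 1193 in leaf. The differences of lateral secretory nectaries from leaf were −10.10 and −9.22, and those of median secretory nectaries −6.78 and −7.05. After secretion both copies were higher than at secretion, by 7.12 and 6.44 in lateral nectaries and by at least 2-fold in median nectaries, yet every nectary value was below leaf.

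**Figure D4:**
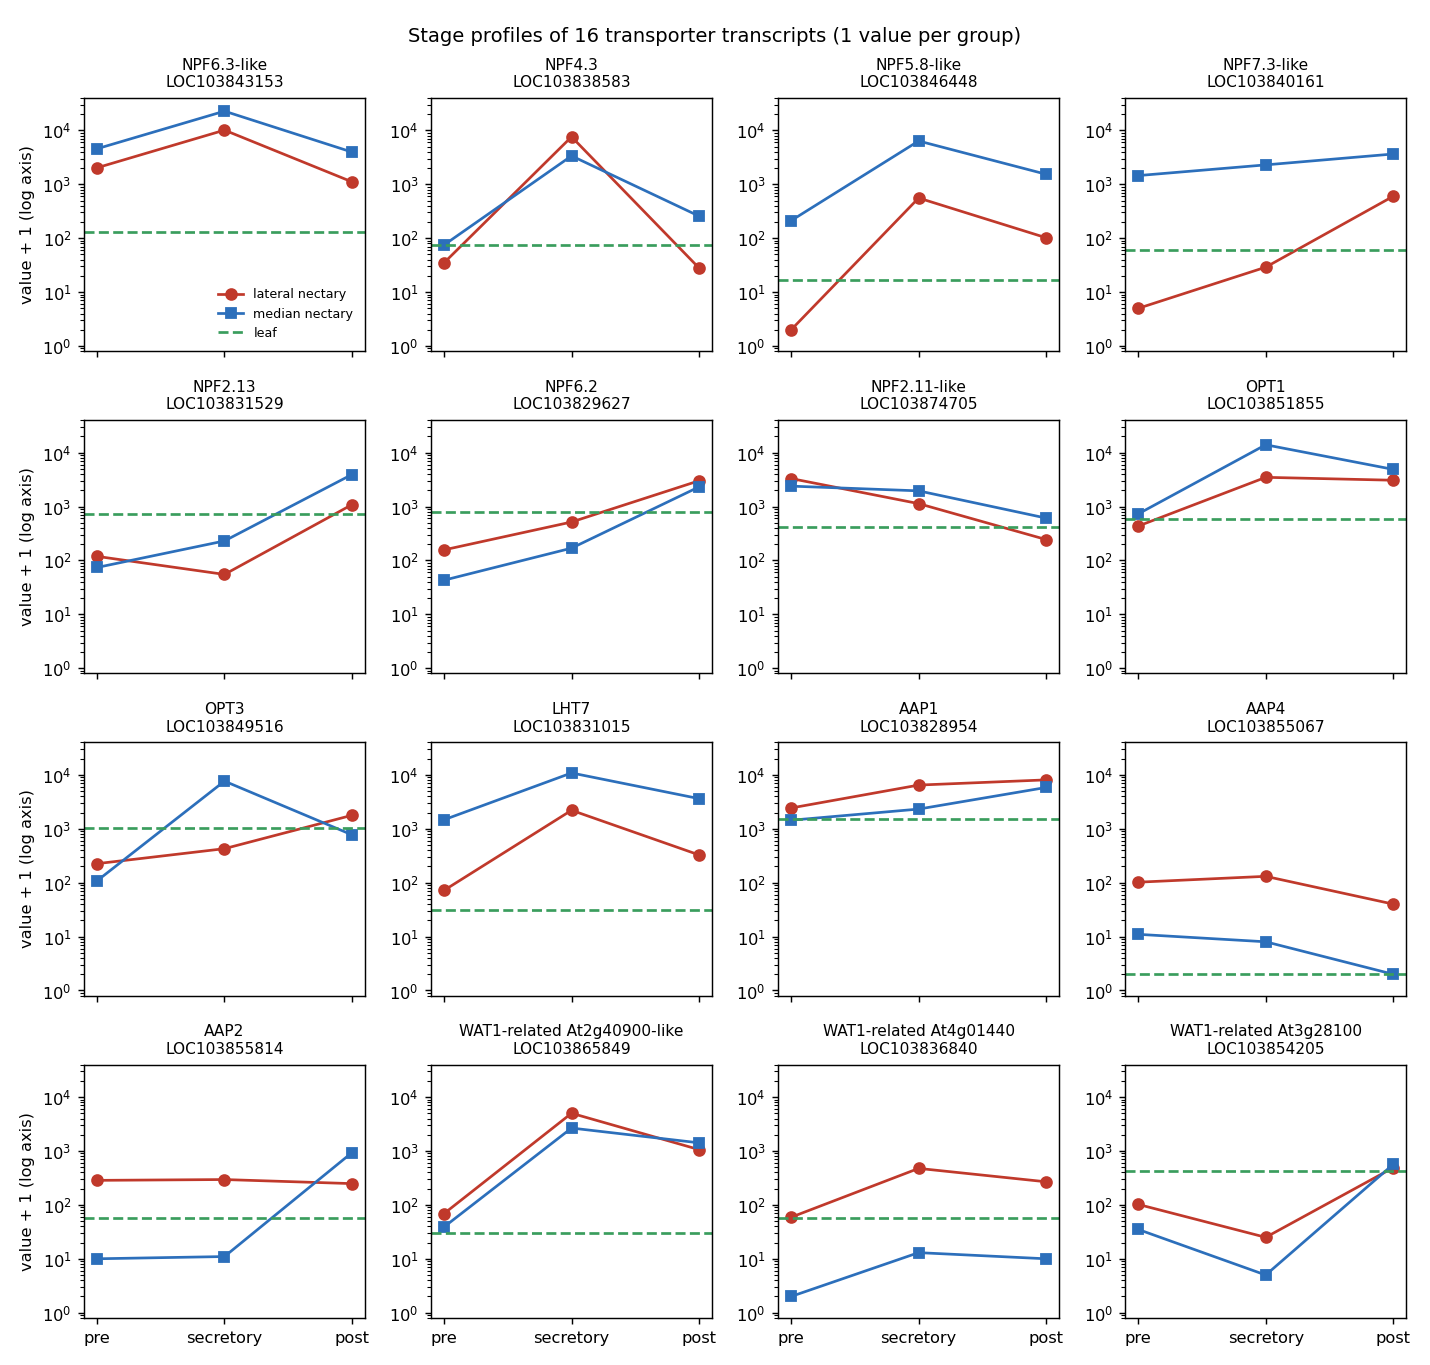
Normalized value plus 1 (log axis) before, during and after secretion for 16 members, with lateral nectaries in red, median nectaries in blue and leaf as a dashed line. NPF4.3, LHT7 and NPF6.3-like peak at secretion in both types, NPF2.13 and NPF6.2 are highest after it, and NPF7.3-like and AAP4 keep their nectary types apart at every stage.

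Among the relatives of glucosinolate importers, NPF2.11-like was highest before secretion and NPF2.10-like was late. NPF2.11, known as GTR2, moves glucosinolates, the defence compounds of mustards, in Arabidopsis. NPF2.11-like (LOC103874705) was listed at 3304, 1131 and 243 in lateral nectaries, at 2388, 1952 and 609 in median nectaries and at 415 in leaf. Its values were lower at each later stage in both types, and it was the member highest before secretion in the lateral type by over 2-fold. NPF2.10-like (LOC103873185), the GTR1 relative, was listed at 13, 15 and 71 in lateral nectaries, at 12, 19 and 101 in median nectaries and at 134 in leaf, so its nectary values were all below leaf.

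Among the NPF8 peptide carriers, NPF8.4-like and the NPF8.3 copies LOC103827536 and LOC103839457 were higher at secretion than before it in both types. Of all genes 13.4% were. NPF8.3, or PTR2, is a dipeptide transporter of Arabidopsis, and its most expressed copy (LOC103827536) was listed at 554, 1620 and 758 in lateral nectaries, at 536, 1154 and 1447 in median nectaries and at 372 in leaf. Copy LOC103839457 was listed at 78, 297 and 111 in lateral nectaries, at 90, 181 and 160 in median nectaries and at 41 in leaf. The median steps of these copies into secretion were 1.10 and 1.00. With equal column totals they were 0.69 and 0.59, below 2-fold. The copy NPF8.3-like (LOC103842957) lay between 16 and 26 in all 7 groups. NPF8.1 (LOC103863259), the dipeptide transporter PTR1, was listed at 26, 22 and 125 in lateral nectaries, at 36, 83 and 434 in median nectaries and at 130 in leaf, and so belonged to the late set. NPF8.4-like (LOC103839458), which matched 2 Arabidopsis loci, was listed at 105, 1100 and 269 in lateral nectaries, at 84, 582 and 269 in median nectaries and at 262 in leaf.

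All 3 oligopeptide transporters were higher in median secretory than in median pre-secretory nectaries, by between 4.26 and 6.14, where 17.6% of all genes were higher. OPT1 (LOC103851855) was listed at 433, 3479 and 3072 in lateral nectaries, at 729, 13973 and 4886 in median nectaries and at 585 in leaf. OPT3, which in Arabidopsis carries iron in the phloem and is needed to load seeds with iron, lies on Arabidopsis chromosome 4 from 9247514 to 9250071 on the reverse strand (AT4G16370). OPT3 (LOC103849516) was listed at 224, 426 and 1775 in lateral nectaries, at 107, 7641 and 771 in median nectaries and at 1026 in leaf. Its median value peaked at secretion, whereas its lateral value was highest after secretion, and lateral minus median was 1.06 before, −4.16 at and 1.20 after secretion. OPT6 (LOC103867590), whose Arabidopsis relative takes glutathione and peptides, was listed at 15, 281 and 152 in lateral nectaries, at 3, 76 and 120 in median nectaries and at 47 in leaf. Every one of the 3 was higher at secretion than before it in both types, OPT3 by less than 2-fold in lateral nectaries (0.92).

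Both ammonium transporters were lower in secretory nectaries than in leaf. The AMT1 proteins take up ammonium from the soil and the cell wall space. Ammonium transporter 1 member 1 (LOC103849623) was listed at 162, 14 and 403 in lateral nectaries, at 203, 85 and 153 in median nectaries and at 381 in leaf. It was lowest at secretion in both types, with steps into secretion of −3.44 and −1.25 and a lateral step out of secretion of 4.75. Ammonium transporter 1 member 2 (LOC103836858) was listed at 18, 9 and 17 in lateral nectaries, at 2, 0 and 4 in median nectaries and at 169 in leaf.

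Amino acid permeases marked lateral nectaries at secretion. Of the 8 genes, 7 were at least 2-fold higher in lateral than in median secretory nectaries and 0 were lower, with a median difference of 3.77, where 14.7% of all genes were higher. AAP4, a permease with a broad range of amino acids in Arabidopsis, had 2 copies. One (LOC103855067) was listed at 101, 130 and 39 in lateral nectaries, at 10, 7 and 1 in median nectaries and at 1 in leaf. The other (LOC103873802) was listed at 70, 107 and 25 in lateral nectaries, at 8, 6 and 1 in median nectaries and at 0 in leaf. Both were higher in lateral nectaries at every stage, by between 2.98 and 4.32. AAP3 (LOC103832187) was listed at 33, 54 and 43 in lateral nectaries, at 0, 2 and 3 in median nectaries and at 3 in leaf.

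AAP2, which transfers amino acids from xylem to phloem in Arabidopsis, was higher in lateral nectaries up to secretion and in median nectaries after it. AAP2 (LOC103855814) was listed at 284, 294 and 247 in lateral nectaries, at 9, 10 and 931 in median nectaries and at 55 in leaf. The lateral values stayed within 2-fold of each other, and the median post-secretory value was above all 3 of them, so that lateral minus median was 4.83 before secretion, 4.75 at secretion and −1.91 after it. Vascular markers also differed between the types. Of 5 such genes 2 were measured, the phloem sucrose carrier SUC2 and the phloem factor APL, and their copies summed to 427, 740 and 1360 in lateral nectaries, to 320, 279 and 502 in median nectaries and to 2367 in leaf. Within that sum the copies differed: APL copy LOC103845853 was listed at 53, 98 and 106 in lateral and at 4 throughout in median nectaries, and SUC2 copy LOC103840834 at 57, 376 and 731 in lateral and at 10, 42 and 82 in median nectaries. APL-like copy LOC103849708 was likewise higher in lateral nectaries, and APL-like copies LOC103860014 and LOC103831963 were higher in median nectaries at secretion, at 68 and 53 in lateral against 101 and 119 in median ones. The other SUC2 copy (LOC103829313) was listed at 6, 27 and 30 in lateral and at 0, 4 and 3 in median nectaries. The part of vascular tissue in the lateral permease values was not tested.

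AAP1, an importer of neutral and acidic amino acids that serves root uptake and seed filling in Arabidopsis, was abundant in both types. The most expressed copy (LOC103828954) was listed at 2426, 6455 and 8060 in lateral nectaries, at 1438, 2315 and 5832 in median nectaries and at 1507 in leaf. The second copy (LOC103838617) was listed at 596, 2640 and 4355 in lateral nectaries, at 317, 594 and 2663 in median nectaries and at 776 in leaf. AAP1-like (LOC103862640) was listed at 43, 776 and 826 in lateral nectaries, at 11, 63 and 184 in median nectaries and at 185 in leaf. Lateral values exceeded median values at every stage, by between 1.48 and 3.60 at secretion. The step into secretion passed 2-fold in all 3 copies in lateral nectaries and in AAP1-like in median nectaries. For LOC103828954 the lateral step was 1.41, with 0.92 under equal column totals and 0.88 after quantile normalization, both below 2-fold. The step out of secretion passed it in all 3 copies in median nectaries, while in lateral nectaries it was between 0.09 and 0.72. AAP5 (LOC103868733), a carrier of basic amino acids in Arabidopsis, followed the late pattern with 240, 198 and 2200 in lateral nectaries, 160, 271 and 2058 in median nectaries and 451 in leaf. Lateral and median values of AAP5 lay within 2-fold of each other at each stage.

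LHT7 was the amino acid importer highest above leaf in median nectaries. LHT7 (LOC103831015) was listed at 71, 2200 and 326 in lateral nectaries, at 1468, 10840 and 3619 in median nectaries and at 30 in leaf. It peaked at secretion in both types, was higher in median nectaries at every stage, and differed from leaf at secretion by 6.15 in lateral and 8.45 in median nectaries. LHT6 (LOC103835462) was low throughout, at 24, 18 and 9 in lateral nectaries, 14, 60 and 27 in median nectaries and 7 in leaf.

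Among the vacuolar, cationic, sodium-coupled and proton-coupled amino acid transporters, 3 of 4 sodium-coupled genes were higher at secretion than before it in each type. Of all genes 21.3% were higher in the lateral and 17.6% in the median step. With equal column totals 2 of the 4 sodium-coupled genes were higher in each step. After quantile normalization 3 were higher in the lateral step, and 2 were higher and 1 lower in the median step. A vacuolar amino acid transporter 1-like gene (LOC103865864) was listed at 663, 7050 and 823 in lateral nectaries, at 499, 2643 and 1187 in median nectaries and at 136 in leaf, a secretion peak of 3.41 in lateral and 2.40 in median nectaries over the pre-secretory stage. The other gene of that name (LOC103867061) was listed at 373, 137 and 300 in lateral nectaries, at 286, 280 and 453 in median nectaries and at 379 in leaf. Among 5 cationic amino acid transporters, of which Arabidopsis CAT2 and CAT4 sit in the vacuole membrane, 1 was higher at lateral secretion than before (21.3% of all genes) and 0 were lower (23.9% of all genes). That gene, CAT2-like (LOC103838177), was listed at 1870, 4450 and 1790 in lateral nectaries, at 1383, 4888 and 3133 in median nectaries and at 1185 in leaf. With equal column totals its lateral step was 0.76, below 2-fold. CAT4 (LOC103828210) was listed at 1009, 787 and 878 in lateral nectaries, at 1631, 1140 and 2556 in median nectaries and at 476 in leaf, with its lowest value of each type at secretion. Within the sodium-coupled neutral group, LOC103875056 was listed at 1489, 5191 and 3109 in lateral nectaries, at 1636, 3465 and 2302 in median nectaries and at 1871 in leaf. Its highest value of each type was at secretion, and the pre-secretory values lay below leaf. Of the 4 proton-coupled genes, 1 was higher and 1 lower than leaf in secretory nectaries of each type, and 2 lay within 2-fold. Of all genes 29.2% were higher and 28.1% lower in the lateral type, and 24.8% and 25.6% in the median type. The proton-coupled gene LOC103854941 was listed at 441, 846 and 814 in lateral nectaries, at 481, 302 and 917 in median nectaries and at 761 in leaf.

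WAT1-related genes were split between secretion and the late stage. UMAMIT11, at the Arabidopsis locus AT2G40900, exports amino acids. Its most expressed relative here (LOC103865849) was listed at 68, 5006 and 1059 in lateral nectaries, at 38, 2660 and 1414 in median nectaries and at 29 in leaf. Both secretory values were the highest of their type, and they exceeded leaf by 7.38 in lateral and 6.47 in median nectaries. The second copy (LOC103866524) was listed at 60, 462 and 236 in lateral nectaries, at 12, 75 and 43 in median nectaries and at 23 in leaf. WAT1-related At4g16620-like (LOC103847696) was high in all nectaries, at 2307, 6222 and 7211 in lateral and 1703, 2369 and 9718 in median ones, against 50 in leaf. WAT1-related At4g01440 (LOC103836840) marked lateral nectaries, with 58, 474 and 267 there, 1, 12 and 9 in median nectaries and 57 in leaf. Its lateral minus median difference was between 4.74 and 5.19 at all 3 stages.

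Several late WAT1-related genes were low at secretion. WAT1-related At3g28100 (LOC103854205) was listed at 101, 24 and 488 in lateral nectaries, at 34, 4 and 563 in median nectaries and at 424 in leaf. WAT1-related At3g56620-like (LOC103863095) was listed at 4, 3 and 344 in lateral nectaries, at 1, 12 and 341 in median nectaries and at 63 in leaf, and At3g56620 (LOC103841564) at 0, 1 and 131, at 0, 0 and 118, and at 21. In all 3 genes the post-secretory values of the types were alike and above leaf. The gene related to At2g39510, UMAMIT14, which exports amino acids from the root phloem in Arabidopsis, differed from them by type. This gene (LOC103867032) was listed at 6, 7 and 25 in lateral nectaries, at 1, 85 and 1461 in median nectaries and at 0 in leaf. The step out of secretion was 1.70 in lateral and 4.09 in median nectaries, and lateral minus median was −5.81 after secretion.

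Counts over all members describe the stage steps. In lateral nectaries 38 members were higher at secretion than before it and 8 lower, against 21.3% and 23.9% of all genes. In median nectaries 36 were higher and 4 lower, against 17.6% and 18.7% of all genes. With at least 100 required in a compared group, 19 of 39 members were higher and 1 lower in the median step, against 17.0% and 18.2% of all genes. The members' medians were 1.03 and 0.99, beside −0.05 and 0.02 for all genes. The same 27 members were higher in both types (13.4% of all genes) and 2 were lower in both (14.8% of all genes). The 2 were ammonium transporter 1 member 1 and WAT1-related At3g28100.

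After secretion the types differed more in their counts. In lateral nectaries 25 members were higher after secretion than during it and 19 lower, against 24.2% and 18.3% of all genes. With equal column totals the split was 32 and 15, against 40.4% and 9.51% of all genes. In that setting the median of all genes in this step was 0.71, against 0.07 as deposited. In median nectaries 36 members were higher and 16 lower, against 17.7% and 15.0% of all genes. The members' median was 0.21 in lateral and 0.93 in median nectaries, beside 0.07 and −0.05 for all genes. Members higher after secretion in both types numbered 21 (12.3% of all genes), and 12 were lower in both (8.66% of all genes). WAT1-related genes were higher after secretion in 7 of 16 lateral and 11 of 16 median cases. Of 5 listed pollen markers 3 were measured, and none of their copies was at 0. They summed to 600, 3909 and 2984 in lateral nectaries, to 1123, 6110 and 9677 in median nectaries and to 176 in leaf. Within that sum the markers differed. ACA9 was lower after secretion than during it in both types, at 942 against 2324 in lateral and 2408 against 2747 in median nectaries. AGP6 and both VGD1 copies were higher after it in both types. AGP6 was at 370 against 276 in lateral and 1273 against 629 in median nectaries. The part of pollen in the secretory and post-secretory values was not tested. The lateral post-secretory column lacks the normalization mark of the other 6, so values in it rest on the same scale having been used.

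**Figure D5:**
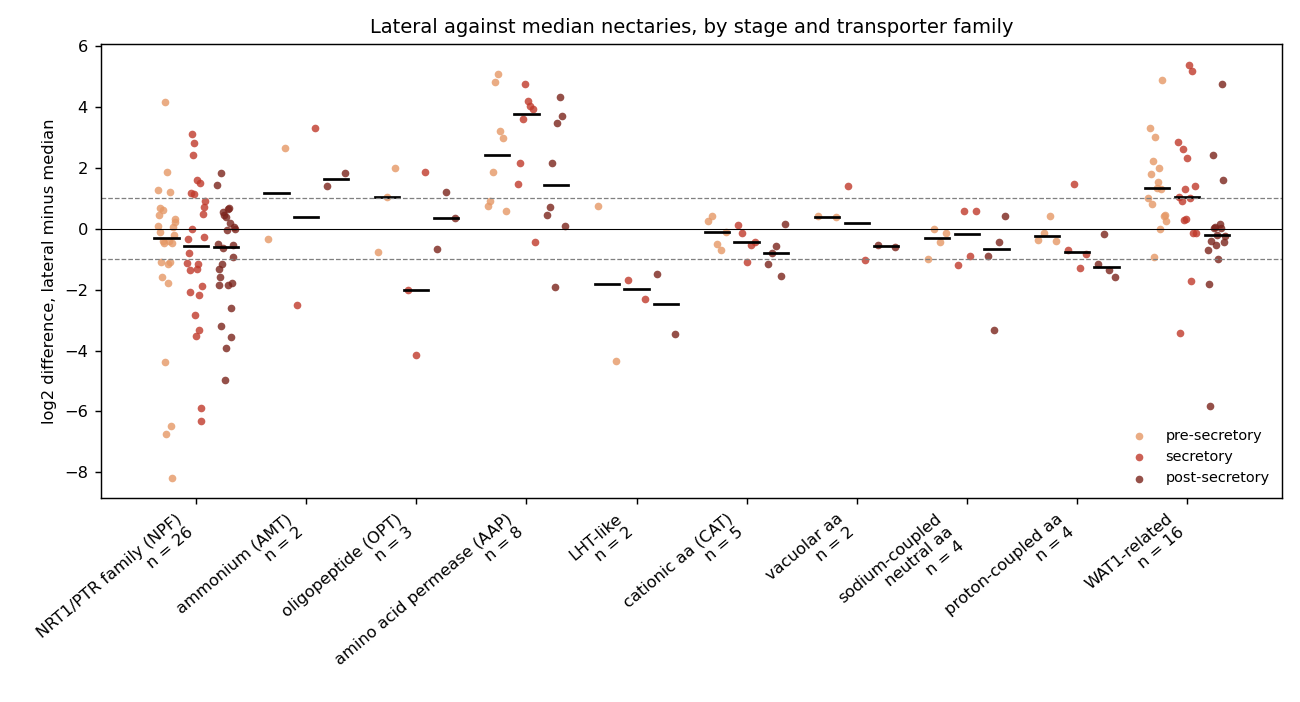
Log2 difference of lateral minus median nectaries for each member at the pre-secretory (light), secretory (red) and post-secretory (dark) stage, by family. Black bars are family medians and dashed lines mark 2-fold. Amino acid permeases have medians of 2.43, 3.77 and 1.43 over the stages, and the lowest NPF points, down to −8.18, are the NPF7.3 copies and NPF5.8-like.

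Lateral and median nectaries differed in more of the transporters than of all genes. Before secretion 22 members were higher in lateral than in median nectaries and 10 lower, against 7.95% and 4.45% of all genes. At secretion 27 were higher and 23 lower, against 14.7% and 13.0% of all genes. After secretion 12 were higher and 23 lower, against 12.8% and 9.45% of all genes. With at least 100 required in a compared group, 8 of 39 members were higher and 6 lower before secretion, against 5.85% and 3.71% of all genes so filtered. At secretion 18 of 47 were higher and 13 lower under that requirement, against 14.6% and 11.9% of all genes. At all 3 stages 7 members were higher in lateral nectaries (2.84% of all genes) and 6 were lower (1.60% of all genes). By family, 10 of 16 WAT1-related genes were higher in lateral nectaries before secretion and 9 at secretion. Of 26 NPF genes 9 were lower before and 12 at secretion. Some of these calls rest on low values. With 10 instead of 1 added to each value, the counts were 5 and 7 for WAT1-related genes and 6 and 9 for NPF genes. In that setting 5.66% and 12.0% of all genes were higher in lateral nectaries before and at secretion, and 3.04% and 9.92% were lower.

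Copies of a gene that match the same Arabidopsis locus mostly peaked together. There were 10 such loci with 22 copies, and in 7 of the 10 loci all copies had their highest value in the same group. The share of such loci over all genes was not computed, so the count describes these copies alone. The exceptions were the copies of NPF8.3, of the CAT2 locus AT1G58030 and of the sodium-coupled transporter locus AT3G30390. Reads shared between near-identical copies could have been split between them, since the counting is not described.

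Other genes of nitrogen assimilation and transport were split about evenly at the onset of secretion. The list, drawn up by product name, had 53 measured genes, among them nitrate and nitrite reductases, glutamine and glutamate synthases and further carriers. It also took in a folylpolyglutamate synthase through its letters. At secretion 12 of 53 (22.6%) were higher than before and 15 (28.3%) lower in lateral nectaries, and 14 (26.4%) were higher and 14 lower in median nectaries. The shares of all genes were 21.3% and 23.9% in lateral and 17.6% and 18.7% in median nectaries. After secretion 19 (35.8%) were higher and 12 (22.6%) lower in lateral nectaries, and 13 (24.5%) were higher and 13 lower in median nectaries. For that step the shares of all genes were 24.2% and 18.3% in lateral and 17.7% and 15.0% in median nectaries. The genes named here were chosen after their values were seen. NADH-dependent glutamate synthase 1 (LOC103857079), which makes glutamate from glutamine, was listed at 10899, 56431 and 4007 in lateral nectaries, at 6110, 12343 and 4363 in median nectaries and at 2409 in leaf. It peaked at secretion in both types, as NPF6.3-like did.

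Nitrate reductase, the enzyme that reduces nitrate to nitrite, was listed as 2 genes. The gene described by clone PBNBR1405 (LOC103832206) was listed at 828, 5642 and 3797 in lateral nectaries, at 521, 3839 and 1339 in median nectaries and at 3613 in leaf. The gene described by clone PBNBR1412 (LOC103830551) was listed at 13, 24 and 14 in lateral nectaries, at 80, 1151 and 97 in median nectaries and at 44 in leaf, so that its peak lay in median secretory nectaries. A cytosolic glutamine synthetase, which makes glutamine from ammonium, had its highest value before secretion, with 19217, 4317 and 5675 in lateral nectaries, 13595, 1177 and 4016 in median nectaries and 619 in leaf (isozyme 1-4-like, LOC103851053). GABA transporter 1 (LOC103836399) was late in both types, with 18, 33 and 850 in lateral nectaries, 11, 48 and 817 in median nectaries and 203 in leaf.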

How the data were processed

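Per the labels, RNA of 21 libraries from leaf and nectaries was sequenced with Illumina TruSeq chemistry. The deposited table holds a score per group, a normalized value that the authors rounded to whole numbers. Per the file headers 6 columns are marked UQN, read here as upper-quartile normalized, and the lateral post-secretory column carries no mark. The aligner, counting, strand use, build and the merging of 3 libraries into 1 value were not given in the sources used here. Rows are Brassica rapa transcripts matched by Brassica juncea sequence, so homeologous copies are not separated.

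Of 14398 transcripts, 13904 genes were kept by their highest mean (25 transcripts without a gene identifier stood alone), and 13896 reached 1 or more in 3 or more groups. Differences in 9 comparisons were taken on log2 (value + 1), which understates the change of low genes. No test was possible with 1 value per group, and the calculation was tested on simulated data. Members and lists were chosen with earlier results of these data known. Named members were the 2 of highest mean per family, the 3 with the largest difference each way per comparison among members reaching 100, and a list of well-known carriers. NPF6.2, NPF1.2, NPF7.2, NPF8.4-like and the vacuolar genes were added after their values were seen. Alternatives were pseudocounts of 0.1 and 10, same-total scaling, quantile normalization, filters on low values, summed transcripts and, chosen after seeing the data, a common 75th percentile. Python 3.11.15, pandas 2.3.3 and numpy 2.4.6 were used. Sequences were not analysed here.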

Additional observations from a re-analysis of the deposited data

Results flagged for a closer look

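Among members that reached 100 in a nectary group, 2 differed by at least 2-fold in opposite directions in the lateral and the median type in the same stage step. The difference between the types was not tested, since each group has 1 value. For NPF2.13 (LOC103831529) the step into secretion was −1.11 in lateral and 1.64 in median nectaries, a difference of −2.75 on the log2 scale. After quantile normalization the lateral step was −0.85, below 2-fold, and the other NPF2.13 copy moved by −0.10 in lateral and 1.17 in median nectaries. For OPT3 (LOC103849516) the step out of secretion was 2.06 in lateral and −3.31 in median nectaries, a difference of 5.36. The lateral value of OPT3 rests on the column without a normalization mark.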

How the results depend on the processing

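Over 8 alternatives, 137 of 144 counts of members higher or lower stayed within 1.5 times the reported count. Under a pseudocount of 0.1, without the low-value filter and with summed transcripts, every count equalled the reported one. Without the filter this was given, since all 72 members had passed it. Of 3128 recomputed differences of the 45 named members, 0 turned to the opposite sign where the reported one was past 2-fold. Most settings could not have shown such a turn. Pseudocounts and filters keep the order of a gene's values, and column totals and upper quartiles differed by less than 2-fold. Only quantile normalization and summed transcripts could have reversed a sign. Requiring at least 100 in a compared group gave, in lateral against median nectaries before secretion, 8 members higher and 6 lower, at secretion 13 lower, in median secretory nectaries against leaf 13 lower, and in the median step into secretion 19 higher and 1 lower. With a pseudocount of 10 that last count was 2. Fewer members entered under the requirement, 39 to 60 of 72. Of 278 named differences past 2-fold, 43 fell below it in some setting. Scaling every column to the same total moved the median of all genes most in the lateral step out of secretion, to 0.71, and to −0.54 in the lateral step into it. Family medians near 0 changed sign with the scaling: for NPF genes in the lateral step out of secretion 0.16 as deposited and −0.23 after quantile normalization, and for amino acid permeases −0.08 and 0.05. No paired analysis was possible because the columns carry no replicates, and leaving out each replicate was not run for the same reason. Depth is unknown, so no floor could be set for values near 0.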

Other observations

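Members not described above included genes that were low in most groups. WAT1-related At3g30340-like (LOC103854493) was listed at 41 in lateral secretory nectaries and at 3 or less in the other 6 groups. A sodium-coupled neutral amino acid transporter 6 gene (LOC103841529) was listed at 70 in median post-secretory nectaries and at 49 in leaf, and at 6 or less elsewhere. The others below had their highest value in post-secretory or lateral secretory nectaries. WAT1-related At4g08290 (LOC103874734) was listed at 3, 89 and 1847 in lateral nectaries, at 2, 98 and 604 in median nectaries and at 68 in leaf. NPF4.4 (LOC103840062) was listed at 0, 77 and 206 in lateral nectaries, at 2, 8 and 57 in median nectaries and at 1 in leaf. Both were more than 2-fold higher in lateral than in median nectaries after secretion. NPF5.11-like (LOC103852756), whose Arabidopsis relative releases nitrate from the vacuole, was listed at 71, 317 and 200 in lateral nectaries, at 98, 143 and 135 in median nectaries and at 25 in leaf. WAT1-related At3g28050 (LOC103854207) was listed at 375, 159 and 1427 in lateral nectaries, at 45, 64 and 1363 in median nectaries and at 222 in leaf. In all 11 members with a group listed at 0, no fold is given against that group. Beyond the members, asparagine synthetase (LOC103873256) was listed at 486 in median post-secretory nectaries, at 39 in leaf and at 16 or less in the other nectary groups.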
